A study of Mus musculus with 2 samples.

Results

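A set of 10 genes of glucose and fructose transport was followed through the cells of the injured mouse kidney. The genes were chosen by symbol from the 32285 genes counted, with earlier results of these data known. They are *Slc2a1*, *Slc2a2*, *Slc2a3*, *Slc2a5*, *Slc2a9*, *Slc2a12*, *Slc5a1*, *Slc5a2*, *Slc5a8*, and *Slc5a10*. The scRNA-Seq data came from the injured kidneys of 1 *Cre*- mouse and 1 PHDTiEC mouse, collected 14 days after the renal artery of 1 kidney had been clamped for 25 minutes at 8–10 weeks of age. The PHDTiEC mouse carried *Cdh5-CreERT2*, in which the endothelial *Cdh5* promoter drives a tamoxifen-inducible Cre, and was homozygous for loxP-flanked (f/f) alleles of *Phd1*, *Phd2*, and *Phd3*, which encode the oxygen-sensing prolyl hydroxylases. The *Cre*- mouse was a littermate without Cre, both animals were male, and tamoxifen was given from day 1 after injury as 4 injections of 3 mg. There was 1 library of 1 mouse per genotype, so no test between genotypes was possible, and every interval below is a 95% interval for counting error only.

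The GLUT proteins, encoded by the *Slc2a* genes, let sugars pass down their gradients, whereas the SGLT proteins, encoded by *Slc5a* genes, draw sugar into the cell together with sodium. In the proximal tubule (PT), SGLT2 of the early segments and SGLT1 of the late segment take filtered glucose from the lumen, and GLUT2 releases it toward the blood. GLUT1 supplies endothelial cells, which depend on glycolysis, and its gene is a textbook target of the hypoxia-inducible factors (HIF) that PHD enzymes hold in check.

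The *Cre*- library held 136004367 UMIs and the PHDTiEC library held 146758812. A total of 8548 and 9309 barcodes passed the filters, with a median of 7500 and 7898 UMIs. After 1 cluster rich in *Gm26917* and *Gm42418* was set aside, 7963 and 8739 cells remained in 18 classes named from marker genes and 9 clusters left by number. The classes include medullary-type (mREC-like) and cortical-type (cREC-like) renal endothelial cells, thick ascending limb (TAL-like), distal convoluted tubule (DCT-like), collecting duct (CD-like), and intercalated (IC-like) cells. Of the markers that define each class, at least 4 of 5 had a UMI in 10% or more of the cells, and for mREC-like cells 5 of 6 did. The median share of mitochondrial UMIs was lower in the PHDTiEC library in all 27 groups of cells. The 28 barcodes found in both libraries, where the kit's barcode list gives an expected 11.7, fell into the same class in 2 cases. The source of this overlap was not tested. mRNA of the floxed genes was not lower across the board in endothelial-like cells of the library labelled PHDTiEC. *Egln1* (PHD2) stood at 67.6 CPM in *Cre*- and 201.8 in PHDTiEC, *Egln3* (PHD3) at 25.9 and 160.4, and *Egln2* (PHD1) at 44.1 and 39.3. A 3′ count does not report whether an exon was deleted.

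Promoter sequences of 8 of the 10 members were at hand (RefSeq, GRCm38.p6), each running from 250 bases before to 50 after the gene start. The core of the hypoxia response element, ACGTG, searched on both strands, was found in 2 of them, *Slc2a1* and *Slc5a1*, and in 19.7% of all 27025 promoters of this length. Both are shown 5′ to 3′ up to the gene start or the end of the motif because they are the members whose windows hold these letters. Capitals mark the motif. The *Slc2a1* stretch is chr4:119108495-119108713 on the plus strand, and its motif lies across the start of the gene as GENCODE places it (119108711). The *Slc5a1* stretch is chr5:33103969-33104218 on the plus strand, where the letters on the 2 strands overlap to form CACGTG. A match describes these letters and says nothing about binding.
Slc2a1: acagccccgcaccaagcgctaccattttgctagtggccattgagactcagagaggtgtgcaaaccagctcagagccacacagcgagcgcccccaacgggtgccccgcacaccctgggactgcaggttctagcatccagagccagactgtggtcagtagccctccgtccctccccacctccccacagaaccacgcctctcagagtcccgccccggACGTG
Slc5a1: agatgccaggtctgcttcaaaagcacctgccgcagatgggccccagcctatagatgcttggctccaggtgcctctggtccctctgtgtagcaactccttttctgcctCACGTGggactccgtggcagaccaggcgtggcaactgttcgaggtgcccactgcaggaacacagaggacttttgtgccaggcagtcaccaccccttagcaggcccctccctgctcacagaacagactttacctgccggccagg

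Each member had its own distribution over cell types. *Slc5a2*, *Slc2a2*, and *Slc2a5* were highest in PT-like cells in both libraries, and *Slc5a1* in TAL-like cells. *Slc2a1* and *Slc2a3* were highest in neutrophil-like cells, and *Slc2a9* in cluster 7, whose leading genes include intercalated and collecting duct markers (*Foxi1*, *Slc26a4*, *Fxyd4*, *Aqp3*). *Slc5a10* was highest in PT-like and then injured PT-like cells. *Slc5a8* was the one member whose highest group differed between the libraries: PT-like cells in *Cre*- and cluster 18, led by *Slc14a2* and *Fst*, in PHDTiEC. *Slc2a12* was low everywhere, reaching 6.28 and 8.07 CPM in urothelial-like cells from 3 and 7 UMIs.

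**Figure D1:**
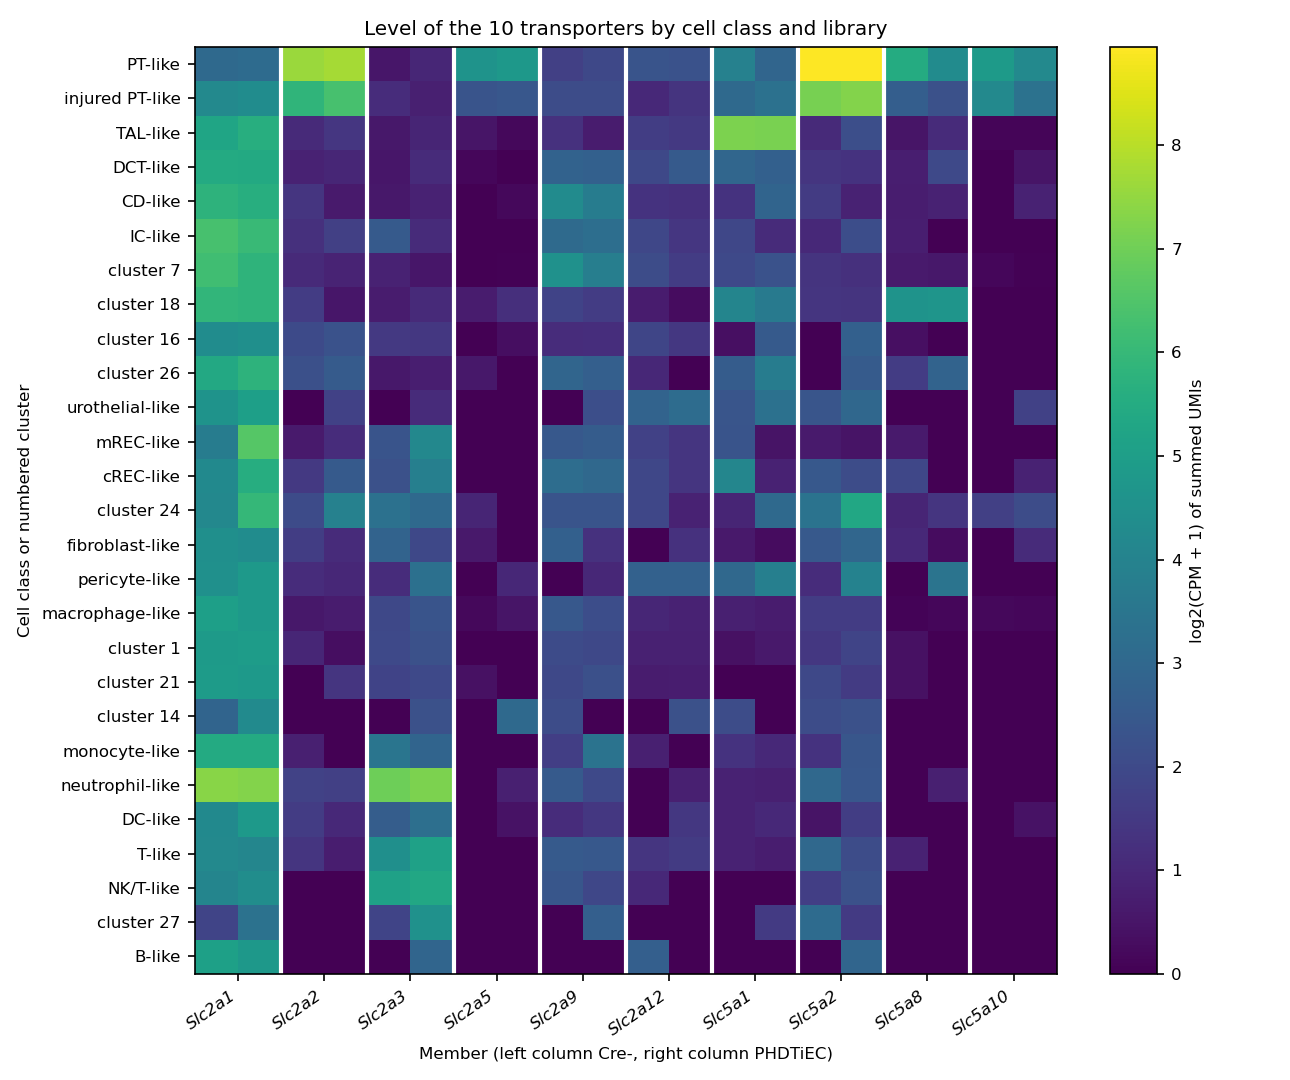
Color gives log2(CPM + 1) of UMIs summed over the cells of each class or numbered cluster (rows) for the 10 members, with the *Cre*- library in the left and the PHDTiEC library in the right column of each gene. *Slc5a2* and *Slc2a2* stand out in PT-like cells, *Slc5a1* in TAL-like cells, and *Slc2a3* in neutrophil-like cells, while *Slc2a1* is seen in every row and is brighter in the PHDTiEC column of mREC-like cells.

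In mREC-like cells, *Slc2a1*, which encodes GLUT1, was counted 22 times in 184 *Cre*- cells and 241 times in 229 PHDTiEC cells. This corresponds to 12.6 CPM (7.87 to 19.02) and 94.9 CPM (83.3 to 107.7), a log2 ratio of 2.92 (2.29 to 3.62), or 7.55-fold. The intervals of the 2 levels do not overlap. A UMI of *Slc2a1* was seen in 9.78% of *Cre*- and 37.1% of PHDTiEC mREC-like cells (exact binomial intervals 5.90% to 15% and 30.8% to 43.7%; median depth 6843 and 8845 UMIs). In PT-like cells, which are deeper and where *Slc2a1* was lowest among the named tubular classes, the shares were 14.6% and 13.4%. After every cell was thinned to 1000 UMIs, the mREC-like shares were 1.68% and 8.00%, and no PT-like cell kept a UMI. Without thinning, the *Cre*- mREC-like share was no higher than that of the deeper PT-like cells, and the PHDTiEC share was above it. At equal depth, both mREC-like shares were above the PT-like share, but the *Cre*- share rests on few cells and its difference from the PT-like share was not tested. By level, *Cre*- mREC-like cells stood at 12.6 CPM and *Cre*- PT-like cells at 7.33 CPM.

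In cREC-like cells the same gene was counted 20 and 59 times, giving 18.1 and 47.1 CPM and a log2 ratio of 1.38 (0.63 to 2.19). The 6 TAL markers summed to 1423 CPM in the cREC-like cells of *Cre*- and 250.8 CPM in those of PHDTiEC, with none of the 6 at 0 in either. In mREC-like cells these markers summed to 218.7 and 30.3 CPM. The 7 macrophage markers summed to 858.1 and 1348 CPM in cREC-like and 476.9 and 339.8 CPM in mREC-like cells. Free RNA, estimated from tubular markers and barcodes under 100 UMIs, was 68.8% of the UMIs of *Cre*- and 17.6% of those of PHDTiEC cREC-like cells. *Slc2a1* stood at 33.2 and 29.7 CPM in those barcodes. Subtracting free RNA left no *Slc2a1* in *Cre*- cREC-like cells, so no ratio was obtained there, and gave a log2 ratio of 3.36 in mREC-like cells. The part of other cells' RNA in the difference was not otherwise tested. Cluster 24, which carries endothelial and mural genes together, stood at 17.2 and 60.8 CPM. In pericyte-like and fibroblast-like cells the levels were 21.4 and 27.5 CPM and 21.1 and 19.3 CPM, and both log2 ratios had intervals that include 0.

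*Slc2a3*, which encodes the high-affinity neuronal and leukocyte transporter GLUT3, was also higher in the mREC-like and cREC-like cells of PHDTiEC. mREC-like cells held 7 and 44 UMIs, or 3.998 and 17.3 CPM, with a log2 ratio of 2.12 (0.95 to 3.51). cREC-like cells held 4 and 17 UMIs, or 3.63 and 13.6 CPM, with a log2 ratio of 1.91 (0.29 to 3.94). Cluster 24 held 20 and 18 UMIs, or 9.04 and 7.29 CPM, with a log2 ratio of -0.31 (-1.31 to 0.68). Among the mREC-like cells of PHDTiEC, 27.1% of those with a *Slc2a1* UMI also had one of *Slc2a3*, against 3.47% of those without. The cells with *Slc2a1* were deeper, at a median of 16293 against 6185 UMIs. In *Cre*- the corresponding shares were 16.7% of 18 cells and 2.41%.

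Only these 2 members reached 50 UMIs over both libraries in mREC-like cells, and both differed by at least 2-fold. Of all 8064 genes with as many UMIs there, 2.74% differed by 2-fold or more in either direction. Of the 2 related transporters that reached 50 UMIs (of 15 listed), neither did, including *Slc50a1*, which encodes the sugar exporter SWEET1, at 208.5 and 157.1 CPM. Of the 9 genes of sugar metabolism and its control that did (of 18 listed), *Hk2* was at least 2-fold higher. *Hk2* encodes hexokinase 2, which phosphorylates glucose on entry, and its log2 ratio was 2.51 (1.64 to 3.51), from 6.85 to 39.0 CPM. *Hk1*, the housekeeping hexokinase, stood at 69.1 and 90.2 CPM. *Txnip*, whose product restrains glucose uptake, stood at 536.3 and 562.3 CPM, with a log2 ratio of 0.07 (-0.05 to 0.19). In cREC-like cells, *Slc2a1* was the sole member with 50 UMIs, and 4.5% of all genes there differed by 2-fold or more. The inositol transporter *Slc5a3* (61.6 and 30.4 CPM) and *Pdzk1ip1*, which encodes the SGLT2 partner MAP17 (152.2 and 57.5 CPM), were at least 2-fold lower in that class, beside the higher TAL markers of *Cre*-.

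**Figure D2:**
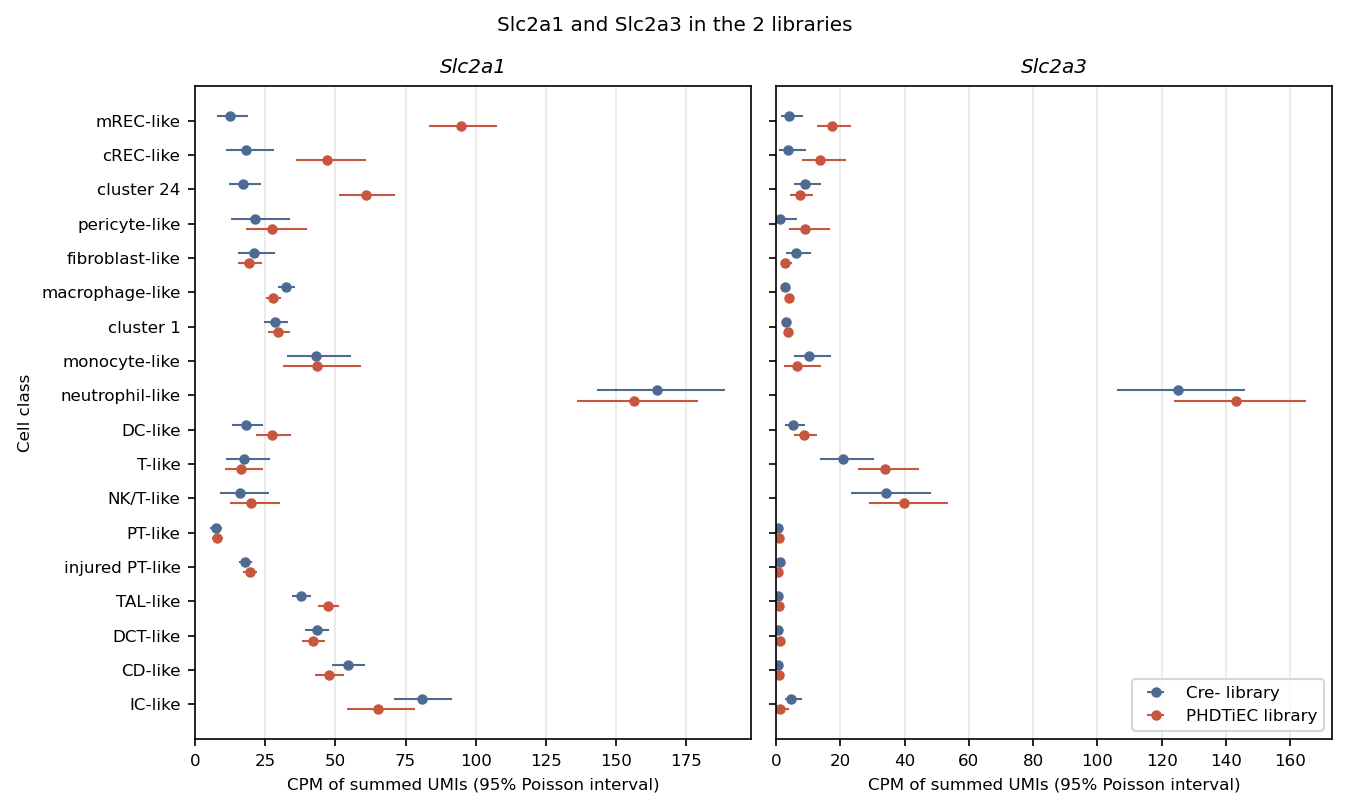
CPM of *Slc2a1* (left) and *Slc2a3* (right) from summed UMIs in 18 groups of cells, with points for the *Cre*- (blue) and PHDTiEC (red) libraries and bars for 95% Poisson intervals. *Slc2a1* in mREC-like cells is at 12.6 CPM in *Cre*- and 94.9 in PHDTiEC, and the neutrophil-like points overlap for both genes.

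Endothelial cells were clustered again to see which of them carried *Slc2a1*. One subcluster, EC5, was led by *Pgf*, *Mgarp*, and *Bnip3* and held 79 mREC-like and cREC-like cells of PHDTiEC and none of *Cre*-. It made up 72 of the 229 mREC-like cells of PHDTiEC (31.4%), and 0 of 184 in *Cre*-, which allows a share of up to 1.98%. A subcluster from a single library cannot be told apart from that library. EC5 carried 207 of the 300 *Slc2a1* UMIs of the PHDTiEC endothelium, at 170.6 CPM (148.1 to 195.4), and 81% of its cells had at least 1. It also carried 33 of 61 *Slc2a3* UMIs (27.2 CPM) and 76 *Hk2* UMIs (62.6 CPM). The subclusters were made from expression in the same cells, so these levels are a description of EC5 and no test of it.

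Outside EC5 the difference was smaller and was not seen in every subcluster. With EC5 left out, the log2 ratio of *Slc2a1* in mREC-like cells was 1.47 (0.71 to 2.27) and in cREC-like cells 1.05 (0.26 to 1.89). Leaving out EC5 takes cells with high *Slc2a1* from the PHDTiEC library alone, so the 2 libraries are not treated alike in these values. EC6, led by *Cytl1* and *Gkn3*, went from 3 UMIs (10.98 CPM) in 35 *Cre*- cells to 17 UMIs (58.7 CPM) in 35 PHDTiEC cells. EC7, led by *Rspo3* and *Calca*, held 5 UMIs (8.33 CPM) in 40 *Cre*- cells and 3 UMIs (8.49 CPM) in 27 PHDTiEC cells, a log2 ratio of 0.03 with a wide interval (-2.66 to 2.39). In EC0, which held most cREC-like cells, the counts were 11 and 24, and the log2 ratio was 0.52 (-0.57 to 1.69). EC1, whose leading genes include *Gm26917* and *Gm42418*, as in the cluster set aside, made up 32.6% of *Cre*- and 21.4% of PHDTiEC mREC-like cells. Its mREC-like and cREC-like cells were shallow, at a median of 2475 and 2204 UMIs, and held 1 and 2 *Slc2a1* UMIs. The part of EC1 in the shares of cells with a *Slc2a1* UMI was not tested. EC9 and EC2, which are led by markers of leukocytes and of blood and tubule, had log2 ratios of 1.52 (0.19 to 3.02) and 1.34 (0.22 to 2.54). Without them the log2 ratio was 3.36 in mREC-like cells and 1.10 (0.09 to 2.22) in cREC-like cells.

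**Figure D3:**
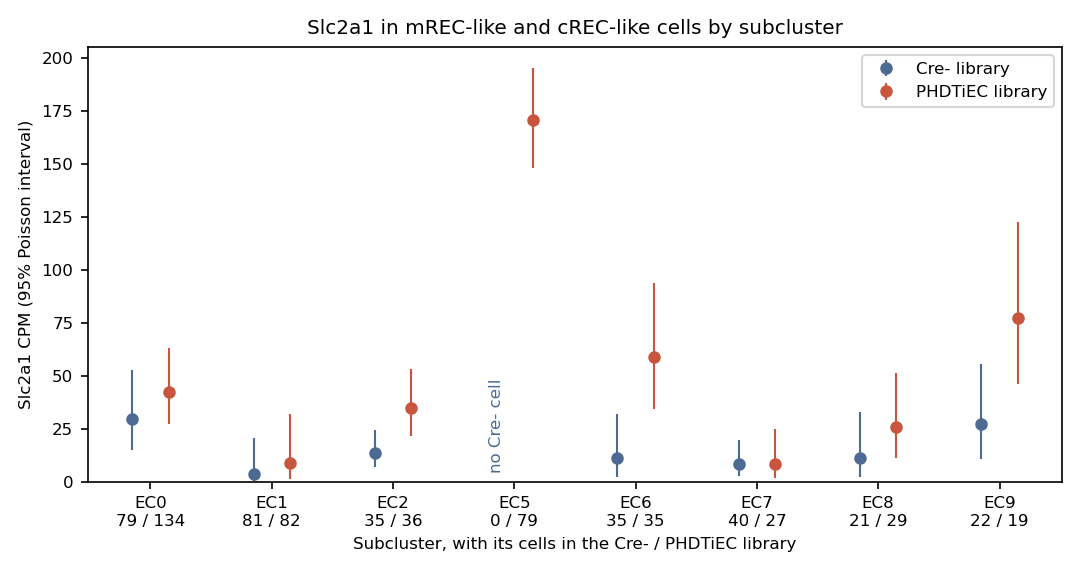
*Slc2a1* CPM in the mREC-like and cREC-like cells of 8 subclusters, with cell numbers in each library under the names, points for the *Cre*- (blue) and PHDTiEC (red) libraries, and bars for 95% Poisson intervals. EC5 has no *Cre*- cell and reaches 170.6 CPM, while both points of EC7 lie near 8 CPM.

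Outside the endothelium, *Slc2a1* was highest in neutrophil-like cells, with 207 and 212 UMIs, or 164.7 and 156.5 CPM, and the 2 intervals overlap (143.1 to 188.8 and 136.1 to 179.0). *Slc2a3* in these cells held 157 and 194 UMIs, or 125.0 and 143.2 CPM, and the log2 ratio of 0.20 (-0.11 to 0.51) includes 0. Neutrophils are known to rely on glycolysis. The log2 ratios of both members in this class were under 2-fold, as were those of all but 0.951% of the genes with at least 50 UMIs. *Slc2a3* came next in NK/T-like cells (34.1 and 40.0 CPM) and T-like cells (20.8 and 34.0 CPM). The T-like log2 ratio was 0.71, with an interval of 0.01 to 1.45 that barely leaves out 0.

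Among mononuclear phagocytes, *Slc2a1* differed between clusters more than between libraries. Cluster 0, led by *Ccl8* and *Mrc1*, stood at 12.6 and 12.5 CPM. Cluster 1, led by *Retnla* and *Ear2*, stood at 28.6 and 29.6 CPM. Cluster 11, led by *Gpnmb*, *Mmp12*, and *Arg1*, stood at 64.6 and 49.6 CPM, with a log2 ratio of -0.38 (-0.60 to -0.16). Clusters 0 and 11 form the macrophage-like class, whose log2 ratio was -0.22 (-0.41 to -0.03) and changed sign under other clusterings. *Slc2a3* in macrophage-like cells held 40 and 66 UMIs (2.86 and 4.03 CPM), with a log2 ratio of 0.49 (-0.09 to 1.10). None of the 4 members with at least 50 UMIs in macrophage-like cells differed by 2-fold, and 0.899% of all genes there did.

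In the distal nephron, *Slc2a1* was lower in the PHDTiEC library in cluster 7, at 73.2 and 55.7 CPM with a log2 ratio of -0.40 (-0.51 to -0.28). Cluster 7 had a median of 48338.5 and 52239.5 UMIs, against 12813 and 12122 in IC-like and 16206.5 and 16013 in CD-like cells. No doublet was removed, and whether its barcodes mix cell types was not tested. IC-like cells (80.7 and 65.3 CPM) and CD-like cells (54.5 and 47.7 CPM) had ratios whose intervals include 0. TAL-like cells were slightly higher, at 37.8 and 47.3 CPM, with a log2 ratio of 0.32 (0.15 to 0.50). *Slc2a9*, which encodes the urate and hexose transporter GLUT9, was lower in PHDTiEC in the groups where it was highest. Cluster 7 held 381 and 263 UMIs (21.9 and 13.1 CPM), with a log2 ratio of -0.75 (-0.98 to -0.52). CD-like cells held 117 and 91 UMIs (18.9 and 12.6 CPM), with a log2 ratio of -0.58 (-0.99 to -0.17).

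*Slc5a2*, *Slc2a2*, and *Slc2a5* differed little between the libraries in PT-like cells. *Slc5a2*, which encodes SGLT2, held 3240 UMIs in 294 *Cre*- cells and 4182 UMIs in 389 PHDTiEC cells, or 484.7 and 493.8 CPM, with a log2 ratio of 0.03 (-0.04 to 0.09). Its UMIs were seen in 74.1% and 75.8% of PT-like cells (median depth 18487 and 17910 UMIs), against 1.58% and 1.62% of macrophage-like cells (6402 and 6787.5 UMIs). *Slc2a2*, which encodes GLUT2, stood at 191.5 and 214.5 CPM, with a log2 ratio of 0.16 (0.06 to 0.27). *Slc2a5*, which encodes the fructose transporter GLUT5, stood at 23.2 and 26.6 CPM (155 and 225 UMIs), with a log2 ratio of 0.20 (-0.11 to 0.50). *Slc2a9* and *Slc2a12* stood under 5 CPM in both libraries.

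In injured PT-like cells, marked by *Havcr1* and *Vcam1*, the same genes were lower than in PT-like cells of the same library. *Slc5a2* stood at 137.5 and 156.2 CPM, and *Slc2a2* at 57.4 and 79.9 CPM. *Slc2a5* stood at 3.99 and 4.42 CPM. The intervals of these levels do not overlap those of PT-like cells for any of the 3 genes in either library. *Slc2a1* went the other way, from 7.33 and 7.68 CPM in PT-like to 17.8 and 19.5 CPM in injured PT-like cells. Between the libraries, *Slc2a2* in injured PT-like cells was higher in PHDTiEC, with a log2 ratio of 0.48 (0.34 to 0.62), and *Slc5a2* slightly so, at 0.18 (0.09 to 0.28). With finer clusters, more components, or the members among the variable genes, the intervals of both included 0. Subcluster PT0, led by *Ccl2* and *Krt20* and the lowest or second lowest in both genes, made up 58.8% of injured PT-like cells in *Cre*- and 38.1% in PHDTiEC. Within PT0, *Slc2a2* stood at 42.8 and 43.3 CPM, with a log2 ratio of 0.02 (-0.24 to 0.28). *Slc2a1* stood at 13.7 and 16.2 CPM in PT0. It stood at 39.1 and 18.2 CPM in PT4, 33.1 and 31.4 CPM in PT7, and 30.5 and 20.7 CPM in PT8. PT7 is led by genes of other tubule cells (*Atp6v1g3*, *Umod*) and PT8 by mural genes (*Acta2*, *Tagln*). Their part in the higher *Slc2a1* of injured PT-like cells was not tested. *Slc2a2* was higher in PHDTiEC in PT3, PT4, and PT6, which mix PT-like and injured PT-like cells. The log2 ratios were 0.24 (0.05 to 0.43), 0.86 (0.26 to 1.51), and 0.62 (0.27 to 0.99). PT4 held 27 and 152 UMIs, from 22 *Cre*- and 100 PHDTiEC cells, and PT6 is led by leukocyte genes (*C1qb*, *C1qa*). PT2, with 243 PT-like and 2 injured PT-like cells, had a log2 ratio of 0.24 (0.02 to 0.46). In PT1, PT5, PT7, and PT8 the intervals included 0.

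A second set of members, *Slc5a1*, *Slc5a8*, and *Slc5a10*, was lower in the PT-like cells of PHDTiEC. *Slc5a1* encodes SGLT1, *Slc5a10* the mannose and fructose transporter SGLT5, and *Slc5a8* a sodium-coupled transporter of lactate and other monocarboxylates rather than of sugar. *Slc5a1* held 96 and 56 UMIs (14.4 and 6.61 CPM), with a log2 ratio of -1.12 (-1.62 to -0.63). *Slc5a8* held 294 and 160 UMIs (44.0 and 18.9 CPM), with a log2 ratio of -1.22 (-1.51 to -0.94). *Slc5a10* held 192 and 147 UMIs (28.7 and 17.4 CPM), with a log2 ratio of -0.73 (-1.05 to -0.41). Of the 8 members with at least 50 UMIs in PT-like cells, 2 differed by at least 2-fold, both lower, where 1.66% of all genes did. None of the 6 related transporters and 15 metabolic genes with as many UMIs did. The paper also left out cells of low complexity (log of genes over log of UMIs under 0.8), which the values above keep. With that filter, the log2 ratio of *Slc5a1* was -0.68 (-1.21 to -0.16), from 72 and 56 UMIs. *Slc5a8* was then under 2-fold as well, and *Slc5a10*, under 2-fold before, remained so.

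Single cells held a large part of these UMIs. One PT-like cell of *Cre*-, with 83936 UMIs, held 97 of the 294 *Slc5a8* UMIs, 24 of the 96 *Slc5a1* UMIs, and 38 of the 192 *Slc5a10* UMIs. One PHDTiEC cell held 47 of the 147 *Slc5a10* UMIs there. Without the cell of each library that held the most UMIs of the gene, the log2 ratios were -0.97 for *Slc5a1*, -0.79 for *Slc5a8*, and -0.98 for *Slc5a10*. *Slc5a1* and *Slc5a8* thus came to under 2-fold, whereas *Slc5a10*, at -0.73 with all cells, moved away from 0 to just under 2-fold. PT-like cells fell mainly into PT1, led by *Spp2* and *Slc34a3*, and PT2, led by *Kap*, *Slc22a6*, and *Slc7a13*, a marker of the late segment. PT2 made up 44.9% (39.1% to 50.8%) of PT-like cells in *Cre*- and 28.5% (24.1% to 33.3%) in PHDTiEC, and the part of this share in the differences was not tested.

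PT1 and PT2 split the members between them. In PT1, *Slc5a2* stood at 724.1 and 696.2 CPM, whereas *Slc5a1* held 0 and 1 UMI, *Slc5a8* held none in either library, and *Slc5a10* held 3 and 2. In PT2, *Slc5a2* stood at 251.2 and 238.1 CPM, *Slc5a8* at 116.3 and 75.0 CPM, *Slc5a10* at 68.3 and 71.1 CPM, and *Slc5a1* at 37.6 and 18.6 CPM. PT2 carried all 6 markers of the early segments beside 4 of the 6 late ones in at least 10% of its cells, so it is named here by its leading genes only. Within PT2 and without these 2 cells, *Slc5a8* had a log2 ratio of -0.18 (-0.53 to 0.16) and *Slc5a10* of -0.25 (-0.68 to 0.17), both including 0. *Slc5a1* kept a ratio of -0.82 (-1.52 to -0.16), from 63 and 28 UMIs.

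**Figure D4:**
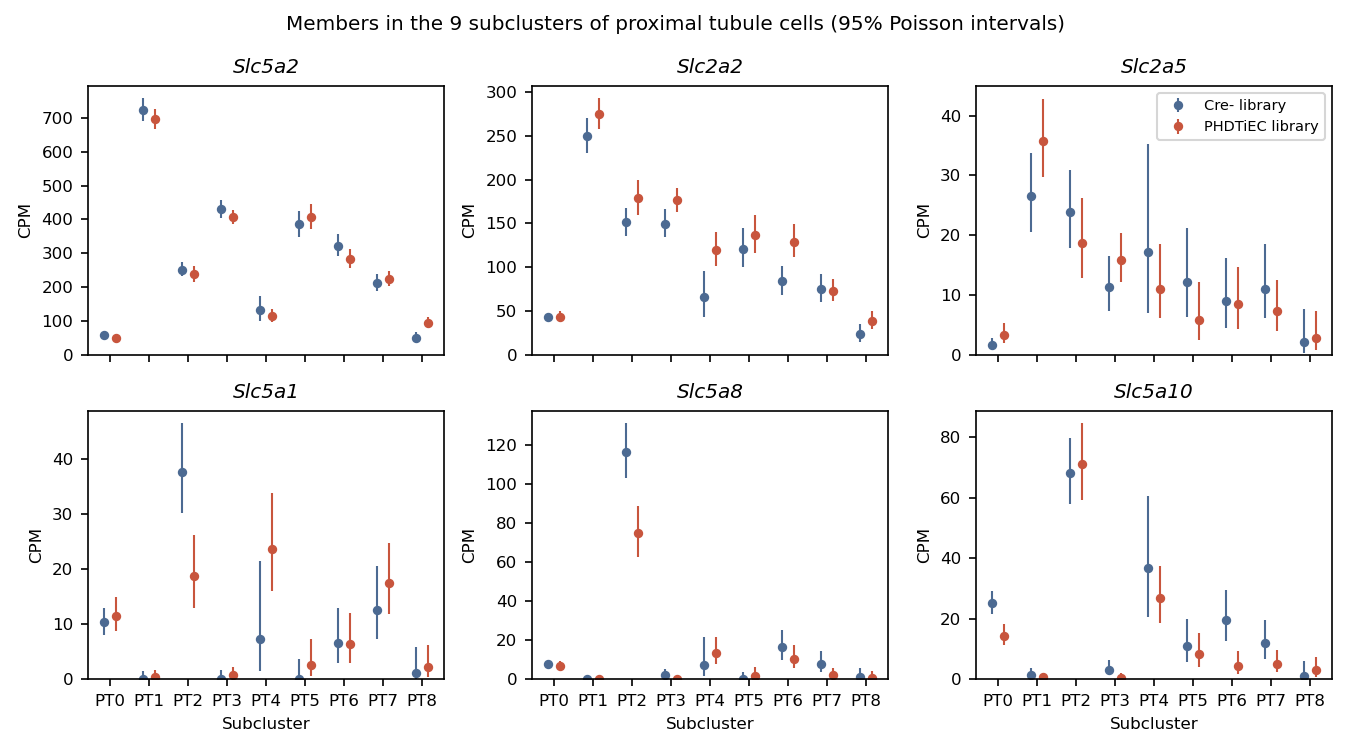
CPM of 6 members in the 9 subclusters of PT-like and injured PT-like cells, with points for the *Cre*- (blue) and PHDTiEC (red) libraries and bars for 95% Poisson intervals. *Slc5a2* is highest in PT1 at 724.1 and 696.2 CPM, and *Slc5a1*, *Slc5a8*, and *Slc5a10* are highest or near it in PT2 and close to 0 in PT1.

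The same split was seen from cell to cell. Of *Cre*- PT-like cells with an *Slc5a2* UMI, 5.05% also had one of *Slc5a1*, against 34.2% of those without, although the former were deeper (22809 against 10490 UMIs). In PHDTiEC the shares were 4.07% and 26.6%. By contrast, 73% of the 37 *Slc5a1*-positive cells of *Cre*- had an *Slc5a8* UMI, against 10.1% of the rest, and in PHDTiEC the shares were 54.1% and 11.6%. *Slc2a2* went with *Slc5a2*, at 91.3% of *Slc5a2*-positive and 55.3% of other cells in *Cre*-.

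In injured PT-like cells, *Slc5a10* was lower in PHDTiEC as well, with 218 and 116 UMIs (17.8 and 9.31 CPM) and a log2 ratio of -0.93 (-1.27 to -0.60), or -0.88 without the top cells. It was also lower within PT0, at 25.1 and 14.4 CPM. *Slc5a8* held 67 and 45 UMIs there, and its ratio of -0.60 became -0.19 (-0.85 to 0.46) without the top cells. *Slc5a1* had a log2 ratio of 0.29 (-0.12 to 0.71). None of the 8 members with at least 50 UMIs in injured PT-like cells differed by 2-fold, and 1.54% of all genes did.

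**Figure D5:**
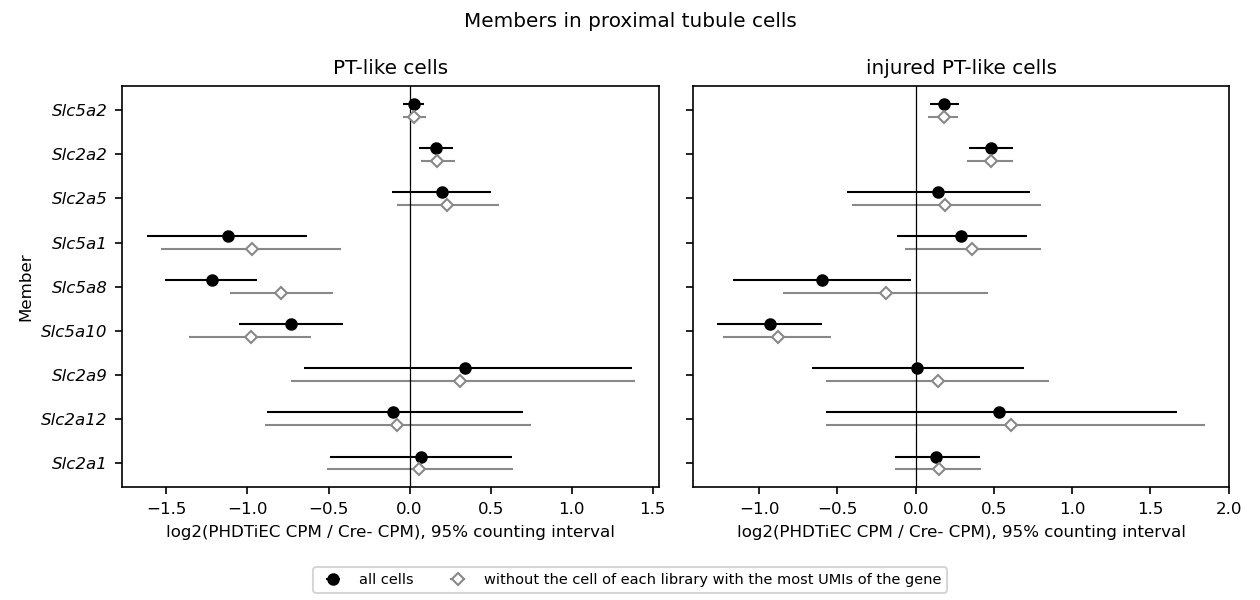
Log2 ratio of PHDTiEC to *Cre*- CPM (horizontal axis) for 9 members in PT-like (left) and injured PT-like (right) cells, with filled circles for all cells, open diamonds without the cell of each library with the most UMIs of the gene, and bars for 95% counting intervals. *Slc5a2* lies near 0 in PT-like cells, and *Slc5a8* moves from -1.22 to -0.79 when those cells are left out.

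*Slc5a1* was highest outside the proximal tubule. TAL-like cells held 1740 and 1876 UMIs of it, or 143.4 and 142.3 CPM, which was 79.2% and 78.9% of all its UMIs in the cells retained. The log2 ratio was -0.01 (-0.11 to 0.08). A UMI was seen in 75.2% of TAL-like cells of each library (median depth 19472 and 25277.5 UMIs), against 0.608% and 0.559% of macrophage-like cells. Of the 3 members with at least 50 UMIs in TAL-like cells, 1 differed by 2-fold, where 1.43% of all genes did. It was *Slc5a2*, with 13 and 45 UMIs (1.07 and 3.41 CPM). The 7 PT markers summed to 48.4 and 69.6 CPM in these cells, none of them at 0, and their part was not tested.

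Small counts of *Slc5a1* differed in other classes. CD-like cells held 9 and 46 UMIs (1.45 and 6.38 CPM), with a log2 ratio of 2.14 (1.09 to 3.35), which made *Slc5a1* the 1 of 3 members with at least 50 UMIs that differed by 2-fold, where 1.88% of all genes did. The 6 TAL markers summed to 336.2 and 314.7 CPM in those cells, none at 0. cREC-like cells held 18 and 1 UMIs, where the TAL markers went from 1423 to 250.8 CPM. Cluster 24 held 21 and 99 UMIs of *Slc5a2* (9.49 and 40.1 CPM), where the 7 PT markers summed to 160.0 and 368.2 CPM. DCT-like cells held 6 and 28 UMIs of *Slc5a8*, of which 1 cell in each library held 83.3% and 71.4%. The part of other cells' RNA in these counts was not tested. *Slc5a8* in cluster 18 was close to equal, with 113 and 112 UMIs (23.1 and 24.6 CPM).

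The genes most like each member were ranked by Pearson correlation of log2(CPM + 5) over the 54 sums of 27 groups of cells and 2 libraries, which share library and depth. *Slc2a2* was closest to *Gm4450* and *Cyp2c23* (r = 0.98 each), *Slc5a2* to *Erich4* (0.96) and *Aqp7* (0.95), and *Slc5a10* to *Aqp7* (0.97). *Slc5a1* was closest to *Rps6ka6* (0.91) and *Eprn* (0.90), *Slc5a8* to *Cyp2a5* (0.93), and *Slc2a3* to *Mxd1* (0.85). *Slc2a1*, which is found in all groups, had no closer neighbor than *Adipor1* (0.76), and *Slc2a12* none closer than *Frs2* (0.66).

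By GENCODE vM21 on GRCm38 (mm10), several members overlap other genes. *Slc5a2* (chr7:128265657-128272430) overlaps *BC017158* on the opposite strand, and *Slc2a12* (chr10:22645011-22704285) overlaps *Tbpl1*. *Slc5a10* (chr11:61672781-61720826) overlaps *Grap* and *Fam83g*, also on the opposite strand. *Slc2a3* (chr6:122727809-122801640) and *Slc5a1* (chr5:33104219-33162870) overlap processed pseudogenes that were not among the genes counted. Whether reads are shared with these was not tested. *Slc2a1* spans chr4:119108711-119137983 on the plus strand.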

How the data were processed

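The authors aligned reads of the Chromium 3′ v3.1 libraries to mm10 with Cell Ranger 4, per the file headers and the labels, and deposited raw UMI counts per gene for every barcode, with no cell filter or normalization. The members and gene lists were chosen with earlier results of these data known. Barcodes with 500 to 100000 UMIs, at least 200 genes, and at most 50% mitochondrial UMIs were kept. The paper's further filter on complexity was not applied in the values reported. Both libraries were clustered together in Seurat 5.3.0 under R 4.3.3 on 20 principal components at a resolution of 0.8, from variable genes without the members and lists. Clusters were named from fixed markers, with judgment, and left by number where markers of another class led or none did. PT-like and endothelial cells were clustered again. No doublet was removed in the values reported. UMIs were summed per class and library and divided by the class total (CPM). Ratios carry exact binomial (Clopper-Pearson) intervals, levels exact Poisson intervals, from scipy 1.17.1. All cover counting error only, and with 1 library per genotype no test was made. The named genes were the 10 members, the listed genes past 2-fold with at least 50 UMIs over both libraries, the listed genes that set their background, and the 3 genes most like each member. The values of 1 listed gene are not reported here. Leading genes of subclusters, and the cells that held most UMIs, were named after the values had been seen. The barcode and gene lists carry no measurements. The ratio was checked on simulated Poisson counts, which share the assumption of the intervals and leave out the clumping of UMIs in single cells. Alternatives in filters, clustering, scaling (TMM, edgeR 4.0.16), and free RNA subtraction were run. Other samples of the study were not analysed here.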

Additional observations from a re-analysis of the deposited data

Results flagged for a closer look

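Members were also counted outside cells. Barcodes under 100 UMIs, which hold free RNA, carried more UMIs of every member than the 3 counts that a count of 0 allows. In the *Cre*- library they held 160 UMIs of *Slc2a1*, 110 of *Slc2a2*, 26 of *Slc2a3*, 11 of *Slc2a5*, 31 of *Slc2a9*, and 14 of *Slc2a12*. For the sodium-coupled transporters they held 70 of *Slc5a1*, 260 of *Slc5a2*, 32 of *Slc5a8*, and 20 of *Slc5a10*. In the PHDTiEC library the same barcodes held 181 UMIs of *Slc2a1*, 128 of *Slc2a2*, 27 of *Slc2a3*, 31 of *Slc2a5*, 26 of *Slc2a9*, and 13 of *Slc2a12*. They held 61 of *Slc5a1*, 412 of *Slc5a2*, 23 of *Slc5a8*, and 9 of *Slc5a10*.

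For 3 members, among values that rest on at least 50 UMIs over both libraries, the libraries differed in opposite directions in different cells, with each interval leaving out 0. *Slc2a1* had a log2 ratio of 2.92 in mREC-like cells and -0.40 in cluster 7. *Slc5a1* had 2.14 in CD-like and -1.12 in PT-like cells. *Slc2a12* had 0.76 in DCT-like cells, from 25 and 46 UMIs, and -0.72 in cluster 7, from 57 and 40 UMIs. The difference between the cell types was not tested, since each library stands for 1 mouse.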

How the results depend on the processing

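Of 272 values recomputed for 19 log2 ratios, 255 stayed within the counting interval of the value reported. *Slc2a1* in macrophage-like cells changed sign at a resolution of 0.4 (0.10) and with 30 principal components (0.01), and was -0.01 with the members among the variable genes and -0.02 as a mean over cells. *Slc2a1* in mREC-like cells was 1.47 and in endothelial-like cells 1.29 without the subcluster that holds no *Cre*- cell, and in endothelial-like cells 4.05 with free RNA subtracted, against 2.43. *Slc5a8* in PT-like cells was -0.62 with a complexity of at least 0.8, a filter that the paper used. It was -0.52 as a mean over cells and -0.79 without the top cells. *Slc5a1* in PT-like cells was -0.68 with that filter, within its interval. *Slc5a10* there was -0.39 with that complexity filter and -0.40 without the highest doublet scores. In injured PT-like cells, *Slc2a2* was 0.16 at a resolution of 1.2, 0.12 with 30 components, and 0.04 with the members among the variable genes, *Slc5a1* was -0.29 at a resolution of 0.4, and *Slc5a2* was 0.06 at 1.2. The cause was not tested. At a resolution of 0.4, no cluster was mostly PT-like, cREC-like, or CD-like, nor CD-like with 30 components, and free RNA subtraction left no *Slc2a1* in *Cre*- cREC-like cells, so these gave no value. Settings without barcodes found in both libraries and without subclusters of other markers were chosen after seeing the data, as were those without EC5 or with cluster 24. Doublet scores removed 6.84% and 7.44% of barcodes, and 55.3% and 58.6% of simulated doublets lay at or over their limit. No paired analysis was possible because each genotype has 1 library. Members under 50 UMIs in a class entered no count of 2-fold differences.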

Other observations

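Some related transporters had levels not described above. *Slc5a3*, the sodium and inositol transporter, held 3866 and 4280 UMIs in TAL-like cells (318.7 and 324.6 CPM), with a log2 ratio of 0.03 (-0.04 to 0.09). *Slc5a11*, a second inositol transporter, stood at 41.0 and 35.7 CPM in PT-like and 8.31 and 9.55 CPM in injured PT-like cells. *Slc5a9*, which encodes SGLT4, stood at 22.7 and 22.4 CPM in PT-like cells. *Slc2a6*, which encodes the lysosomal GLUT6, was highest of the 8 classes examined in neutrophil-like cells, at 50.9 and 50.2 CPM. *Slc2a4*, which encodes the insulin-responsive GLUT4, reached 50 UMIs in TAL-like cells (9.65 and 8.49 CPM) and CD-like cells (4.84 and 4.16 CPM) only.

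*Hk2* was higher in the PHDTiEC library beyond the endothelium, though by less than 2-fold. It stood at 129.5 and 185.9 CPM in macrophage-like cells, a log2 ratio of 0.52 (0.44 to 0.61), and at 89.6 and 144.2 CPM in CD-like cells, a ratio of 0.69 (0.54 to 0.84). In TAL-like cells the ratio was 0.39 (0.30 to 0.48), and in neutrophil-like cells it was 0.12 (-0.18 to 0.41). *Txnip* was higher as well in CD-like cells, at 455.8 and 650.0 CPM, and in PT-like cells, at 34.9 and 54.7 CPM. The fructose pathway genes *Khk* (354.7 and 311.2 CPM) and *Tkfc* (174.4 and 158.7 CPM) differed by less than 2-fold in PT-like cells.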
